A study of Mus musculus with 76 samples.

Results

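The cardiac stress and fetal genes are 9 genes, Nppb, Acta1, Myh7, Myh6, Ankrd1, Xirp2, Ctgf, Myom2 and Gnb3, taken by symbol from a count table of 38129 gene entries. All 9 passed the filter on low counts, which kept 16397 genes in heart. RNA was sequenced from heart, liver and the suprachiasmatic nucleus (SCN, the site of the central circadian clock) of mice, and the 26 heart libraries are described here. Genotypes were WT, for wild type, and Bmal1-VIPKO, called KO below; by its name the KO removes Bmal1 (gene symbol Arntl), a core clock factor, from cells producing the peptide Vip. Food was given ad libitum (AL) or as time-restricted feeding (TRF), and tissue was taken at circadian time (CT) 0 or 12. The 8 heart groups are AL WT CT0, AL WT CT12, AL KO CT0, AL KO CT12, TRF WT CT0 and TRF WT CT12, with 3 libraries each, and TRF KO CT0 and TRF KO CT12, with 4 each. Libraries are named by their title numbers. The driver of the knockout and the strain, age and sex of the mice are not given in the sources used here, and neither are the feeding hours. Nothing in the labels says that the libraries of a group came from separate animals, so p values measure the spread between libraries, which may be technical.

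The adult mouse heart runs mainly on the fast α-myosin heavy chain, and the slow β-myosin heavy chain and skeletal α-actin belong to the fetal heart. Under mechanical or hormonal load the muscle cells can take up fetal genes again and raise stretch-responsive genes such as the natriuretic peptides. Factors that bind MCAT elements (the TEAD family), CArG boxes (serum response factor) and GATA elements are known regulators of several of these promoters.

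The genes encode proteins of several kinds. Nppb (ENSMUSG00000029019, chr4:147985788-147987205) encodes B-type natriuretic peptide, a hormone released by stretched heart muscle. Acta1 (ENSMUSG00000031972, chr8:123891769-123894751) encodes skeletal α-actin, and its cardiac counterpart is Actc1. Myh7 (ENSMUSG00000053093, chr14:54970684-54994626) encodes the β-myosin heavy chain. Myh6 (ENSMUSG00000040752, chr14:54941921-54966927) is its neighbour and encodes the α-myosin heavy chain. Myom2 (ENSMUSG00000031461, chr8:15057653-15133541) encodes an M-band protein that links thick filaments. Ankrd1 (ENSMUSG00000024803, chr19:36111961-36120099) encodes an ankyrin repeat protein of the sarcomere that responds to strain. Xirp2 (ENSMUSG00000027022, chr2:67446002-67526614) encodes an actin-binding protein of the intercalated disc. Ctgf (ENSMUSG00000019997, chr10:24595442-24598683) encodes a matrix-associated protein that is a well-known target of YAP and TEAD. Gnb3 (ENSMUSG00000023439, chr6:124834240-124840275) encodes a G protein β subunit. All are protein-coding genes, with coordinates in GRCm38.

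Promoter sequences in RefSeq (GRCm38.p6) were matched for 6 of the 9 genes, Nppb, Acta1, Myh6, Myh7, Ankrd1 and Xirp2. Those of Nppb, Acta1 and Ankrd1 are shown because they hold most of the motifs found. Each sequence shown is the 250 bases before RefSeq's gene start, written 5′ to 3′ on the gene's strand, with motif matches in capitals. RefSeq's starts differ from those of the gene coordinates given above. By those coordinates the Ankrd1 stretch lies inside the gene, the Nppb stretch partly inside, and the Acta1 stretch ends before the gene. Distances below are to RefSeq's start.

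Nppb (chr4:147985650-147985899, plus strand): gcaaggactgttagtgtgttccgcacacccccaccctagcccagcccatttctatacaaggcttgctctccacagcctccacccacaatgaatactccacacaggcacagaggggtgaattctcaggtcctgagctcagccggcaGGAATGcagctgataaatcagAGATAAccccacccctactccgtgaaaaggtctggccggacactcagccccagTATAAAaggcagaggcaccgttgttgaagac
Acta1 (chr8:123894776-123895025, minus strand): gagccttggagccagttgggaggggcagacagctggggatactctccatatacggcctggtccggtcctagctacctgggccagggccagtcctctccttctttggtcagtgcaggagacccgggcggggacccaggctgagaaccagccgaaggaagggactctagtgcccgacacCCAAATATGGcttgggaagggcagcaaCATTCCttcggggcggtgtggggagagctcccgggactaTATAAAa
Ankrd1 (chr19:36119845-36120094, minus strand): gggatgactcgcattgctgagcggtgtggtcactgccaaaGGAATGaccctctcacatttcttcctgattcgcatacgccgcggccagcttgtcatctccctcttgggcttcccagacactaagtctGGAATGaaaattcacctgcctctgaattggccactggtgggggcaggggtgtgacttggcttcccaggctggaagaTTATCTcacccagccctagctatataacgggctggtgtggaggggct

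The TATA box was searched as TATAAA on the gene's strand alone. The other motifs were searched on both strands. The MCAT element was searched as CATTCC. The GATA element was searched as AGATAA. The E-box, the kind of site that clock factors bind, was searched as CACGTG, and the CArG box by its consensus. In the Nppb sequence the TATA box starts 31 bases before the gene start, the GATA element 84 and the MCAT element, on the opposite strand, 105. The Acta1 sequence holds the TATA box at 7 bases, the MCAT element at 46 and the CArG box at 73. The Ankrd1 sequence holds the MCAT element at 210 and 123 bases and the GATA element at 47, all on the opposite strand. Over windows from 250 bases before to 50 after the start, 5 of the 6 genes held the MCAT element, against 14.7% of 32851 promoters. The TATA box was in 3 of the 6 (8.32% of all), the GATA element in 2 (11.2%), the CArG box in 1 (1.63%) and the E-box in 0 (7.15%). The window of Xirp2 held 0 of these motifs. All matches are letter matches and not measured binding.

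Some features of the libraries bear on the values. The 3 AL WT CT12 hearts held RNA of brain genes. Their summed level of 15 neuronal and glial markers was 942 to 2261 CPM (counts scaled to a common library total), against 90.8 to 124 CPM in the other 23 hearts. The median neuronal marker reached 7.47 to 21.7% of its SCN level there, against 0.0186 to 0.272% elsewhere. Ventricular muscle markers summed to 21083 to 35650 CPM in those 3 libraries and to 41675 to 49520 CPM in the others. Most comparisons that use AL WT CT12 are therefore given apart below. Acta1 is also given for AL CT12, and the actin and myosin ratio tests include this group unless stated. Library 48 of that group also had 34.2% of its counts in mitochondrially encoded genes (95% Wilson interval 34.18 to 34.23%), against 7.76 to 13.6% in the other 25. In each AL group 1 of the 3 libraries has a title number of 3 digits. These 4 libraries each differed from 1 library of their own group by 1.37 to 1.70 times the counting noise. The 22 pairs within groups that hold no such library differed by 2.23 to 30.8 times, so calls that were lost without these 4, called the 3-digit libraries, are named beside the result. Atrial RNA also differed. The summed level of 7 atrial markers was 1616, 4189 and 1623 CPM in AL KO CT0 libraries 56, 57 and the 3-digit one. It was 57.4, 937 and 348 CPM in AL KO CT12 libraries 65, 66 and the 3-digit one, and 459 to 4093 CPM in AL WT CT12. In all other hearts it was between 51.0 and 84.1 CPM. The total counts of the heart libraries ran from 15049374 to 17878150.

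**Figure D1:**
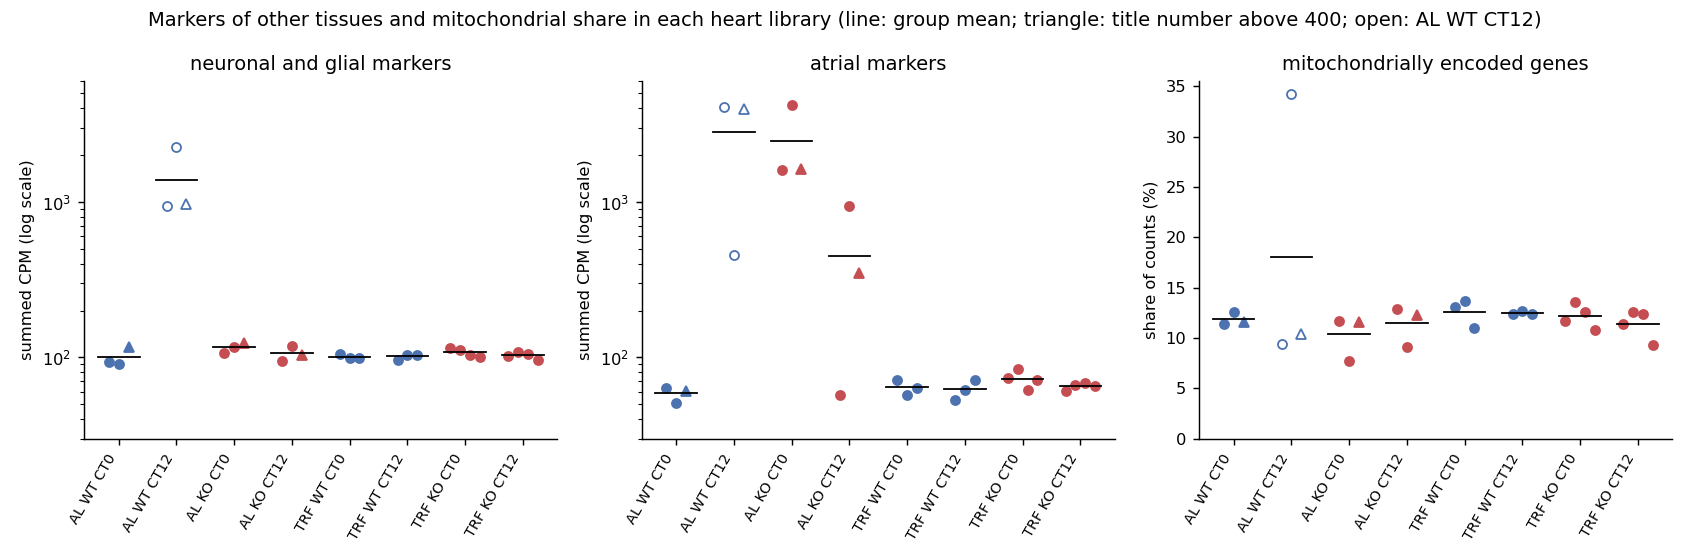
Summed CPM of neuronal and glial markers (log axis), summed CPM of atrial markers (log axis) and share of counts in mitochondrially encoded genes (%), for each of the 26 heart libraries by group. Blue is WT and red is KO, open symbols are AL WT CT12, triangles are the 3-digit AL libraries and lines are group means. The AL WT CT12 libraries stand at 942 to 2261 CPM of neuronal and glial markers, above the 90.8 to 124 CPM of the others.

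The labels were checked in SCN, the tissue that holds Vip neurons. Vip averaged 0.493 ± 0.427 CPM (SD, n = 12) in the libraries labelled KO and 7.77 ± 5.65 CPM (n = 12) in those labelled WT. Arntl itself averaged 23.3 ± 3.21 and 22.4 ± 2.40 CPM, which does not show the deletion. KO and WT below are the labels' words. All libraries are bulk tissue, so fewer cells of a type and less RNA per cell cannot be told apart.

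Per length, the 9 genes spanned a wide range of levels in the 23 hearts outside AL WT CT12. Myh6 had a median of 5834 RPKM (CPM divided by exon length in kilobases), and its range of 4795 to 7247 RPKM lay above all the others. Myom2 (median 314 RPKM), Ankrd1 (279), Nppb (227) and Acta1 (207) followed, with ranges that overlap between neighbours. Myh7 came next at 71.4 RPKM, and its range of 53.8 to 280 RPKM lay above the 23.8 to 48.9 RPKM of Xirp2. Ctgf (16.2 RPKM) and Gnb3 (12.2 RPKM) were the lowest and overlapped each other. A share of 22.2% of the 50-base words of Myh7 exons also occurs in Myh6, so some reads could be assigned to either. No 50-base word of Acta1 occurs in Actc1. The strand setting of the counting is not given, so reads of Myh7 and of the antisense gene Mhrt, which overlaps 484 bases of its exons, or Gm31251, which overlaps 523, cannot be told apart. The same holds for Ctgf and Gm15270, which overlap by 665 bases, though Gm15270 averaged 7.0 counts per heart library against 774 for Ctgf.

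The genes belonged to the heart. The median in liver was 0 CPM for Nppb, Acta1, Myh7, Xirp2, Myom2 and Gnb3, and 0.125, 0.488 and 2.91 CPM for Myh6, Ankrd1 and Ctgf. In SCN the median was 7.23% of the heart median for Gnb3, 6.15% for Ctgf, 2.26% for Acta1 and 1.22% for Myh7. It was at most 0.0368% for the other 5. Levels per tissue are CPM over library totals.

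Levels in single heart libraries are given below as CPM with TMM factors (a scaling for RNA composition). Whether the libraries of compared groups overlap is a description, and the share of all genes without overlap was not counted. Fold changes are on the log2 scale, with standard errors (SE) and adjusted p from edgeR's quasi-likelihood test over all 16397 genes, and a gene is called when its adjusted p is below 0.05.

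**Figure D2:**
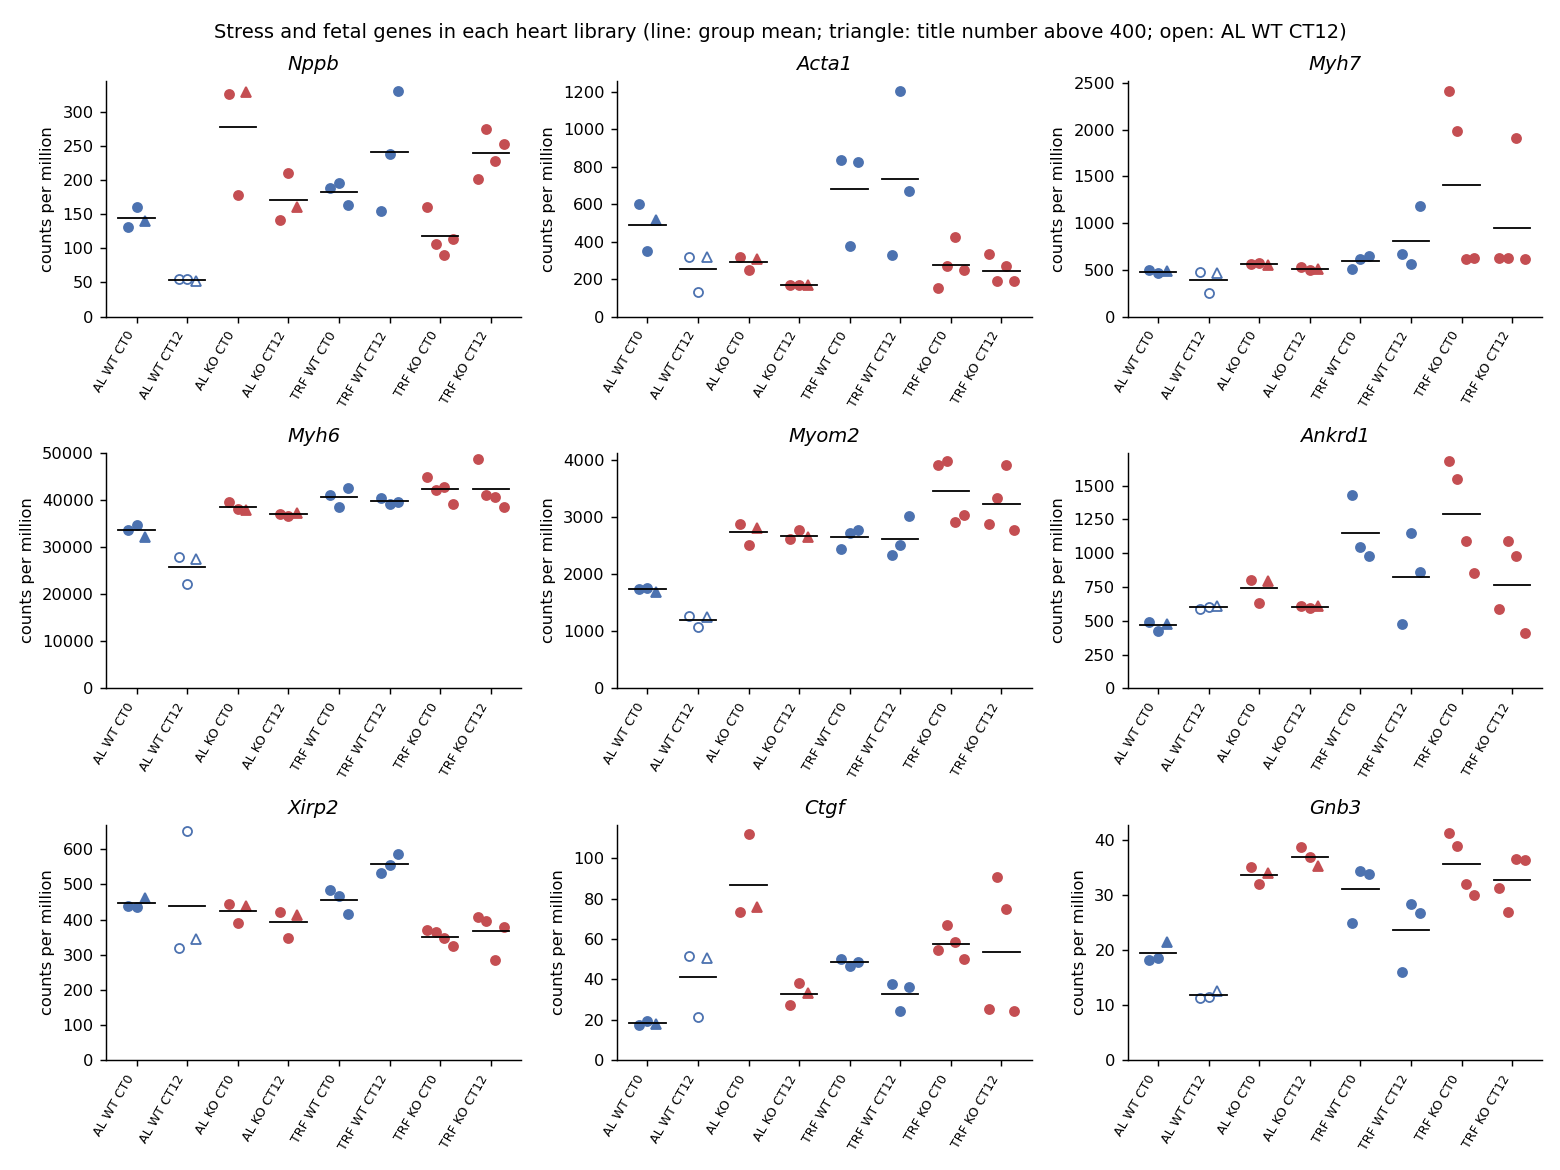
Level of each gene (CPM, linear axis from 0) in each of the 26 heart libraries by group. Blue is WT, red is KO, open symbols are AL WT CT12, triangles are the 3-digit AL libraries and lines are group means. Acta1 lies at 152 to 425 CPM in the 14 KO libraries, and Myh7 stands at 1905 to 2411 CPM in 3 TRF KO libraries.

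Acta1 was lower on average in KO than in WT in each combination of feeding and time. Under TRF at CT0 its level was 835, 377 and 822 CPM in WT libraries 1, 2 and 3, and 152, 268, 249 and 425 CPM in KO libraries 20, 21, 73 and 55. At CT12 it was 326, 1203 and 671 CPM in WT libraries 10, 11 and 12, and 332, 192, 268 and 189 CPM in KO libraries 28, 29, 30 and 64. The KO libraries sit at the low end at both times, and at each time 1 KO library overlaps the lowest WT library. Under AL at CT0 the WT libraries 38, 39 and the 3-digit one gave 600, 352 and 516 CPM and the KO libraries 56, 57 and the 3-digit one gave 318, 247 and 308 CPM, with no overlap. No single genotype comparison was called for Acta1, with log2 differences (KO minus WT) of -1.31 ± 0.40 (SE) in TRF CT0, -1.58 ± 0.40 in TRF CT12, -0.75 ± 0.43 in AL CT0 and -0.60 ± 0.44 in AL CT12, and edgeR adjusted p of 0.212, 0.0754, 0.574 and 0.299.

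The genotype effect was then averaged over combinations of feeding and time, a contrast chosen after the values were seen. Over the 3 combinations without AL WT CT12, 5 of the 9 genes were called, where 4.73% of all heart genes were. The 9 genes were chosen with earlier results of these data known. Counts of called members beside such shares, here and below, are therefore descriptions and not tests of the members as a set. Acta1 fell by 1.21 ± 0.24 on the log2 scale (edgeR adjusted p = 0.00795) and Xirp2 fell by 0.35 ± 0.10 (adjusted p = 0.0377). Ctgf rose by 1.07 ± 0.22 (adjusted p = 0.0105), Gnb3 by 0.49 ± 0.09 (adjusted p = 0.0042) and Myom2 by 0.45 ± 0.07 (adjusted p = 0.00154). Acta1, Gnb3 and Myom2 were called under all 36 alternative settings of this contrast, including the one without the 3-digit libraries, and Xirp2 under 18 of the 36 (adjusted p from 0.000233 to 0.183). Ctgf missed the threshold only without the 3-digit libraries (log2 1.09, adjusted p = 0.0525; range over the alternatives 0.00018 to 0.0525).

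The genotype effect was also averaged within TRF alone, again a contrast chosen after the values were seen. Its 14 libraries hold no 3-digit library, and their atrial markers stay between 53.5 and 84.1 CPM. There 3 of the 9 genes were called for genotype against 2.76% of all genes. Acta1 fell by 1.44 ± 0.28 on the log2 scale (edgeR adjusted p = 0.0128), and this held under all 36 alternatives. Xirp2 fell by 0.49 ± 0.11 (adjusted p = 0.0233) and Myom2 rose by 0.34 ± 0.09 (adjusted p = 0.0323). Xirp2 was called under 30 of the 36 alternatives (adjusted p from 0.000101 to 0.125) and Myom2 under 25 (0.00341 to 0.1). Gnb3 at +0.33 ± 0.11 (adjusted p = 0.0941) and Ctgf at +0.48 ± 0.26 (adjusted p = 0.35) did not pass. Skeletal muscle markers were near 0 in the same hearts. Their sum over 9 genes was 2.13 to 7.15 CPM in the 23 libraries outside AL WT CT12. Hepatocyte markers varied among the TRF hearts. They summed to 193 to 247 CPM in WT CT0 and 0.447 to 220 CPM in KO CT0. At CT12 they summed to 2.05 to 4.94 CPM in WT and 0.297 to 0.776 CPM in KO. Their part in the genotype results was not tested. Arntl in TRF CT0 was at 3.17 ± 1.92 CPM (SD, n = 4) in KO and 10.7 ± 1.74 CPM (n = 3) in WT. Dbp, a clock output gene, was at 99.7 ± 23.6 and 87.2 ± 13.0 CPM in the same groups. The part of clock phase in the genotype results was not tested.

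Xirp2 levels did not overlap between the genotypes under TRF, though neither single comparison was called (edgeR adjusted p = 0.44 at CT0 and 0.0788 at CT12). At CT0 it was at 484, 467 and 415 CPM in the WT libraries 1, 2 and 3 and at 370, 365, 325 and 347 CPM in the KO libraries 20, 21, 73 and 55. At CT12 it was at 533, 555 and 586 CPM in WT and at 406.9, 396, 285 and 378 CPM in KO. All KO libraries lie below all WT libraries at both times. At CT0 Nppb was also lower in KO without overlap and Myom2 higher, and neither was called. Under AL at CT0 the groups overlap, with 436 to 461 CPM in WT and 390 to 445 CPM in KO.

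The single genotype comparisons outside AL WT CT12 called members in 1 of 3 cases. In TRF CT0 edgeR called 0 of 9 (0.293% of all genes), with 5 of 9 at an unadjusted p below 0.05 and 0 by DESeq2. In TRF CT12 it also called 0 of 9 (0.634% of all genes), with 4 at an unadjusted p below 0.05 and 2 by DESeq2 (Acta1 and Xirp2). In AL CT0 it called 3 of 9 (1.46% of all genes), Ctgf, Gnb3 and Myom2, and DESeq2 called these and Nppb.

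For Ctgf in AL CT0 the WT libraries 38, 39 and the 3-digit one were at 17.5, 19.2 and 18.0 CPM and the KO libraries 56, 57 and the 3-digit one at 73.2, 112 and 75.8 CPM. The groups are far apart, and the log2 difference was 2.25 ± 0.42 (edgeR adjusted p = 0.00607). Library 57, the highest, also had the highest atrial marker sum of that group. In the other AL KO group Ctgf was at 27.3, 38.3 and 33.2 CPM. Myom2 in AL CT0 was at 1748, 1763 and 1695 CPM in WT and at 2890, 2518 and 2807 CPM in KO, a log2 difference of 0.66 ± 0.13 (adjusted p = 0.00657). Gnb3 was at 18.3, 18.6 and 21.5 CPM in WT and at 35.2, 32.1 and 34.0 CPM in KO, a log2 difference of 0.79 ± 0.16 (adjusted p = 0.0107). For all 3 genes the KO libraries lie above the WT libraries without overlap. Without overlap, Nppb, Myh7, Myh6 and Ankrd1 were also higher in this comparison and Acta1 was lower, though none of them was called. The share of all genes without overlap was not counted. In both groups the 3-digit library is close to another library, at 1.48 (WT) and 1.37 (KO) times the counting noise. The lack of overlap is therefore not a result about the members. Without the 3-digit libraries the adjusted p was 0.112, 0.182 and 0.112 for Ctgf, Myom2 and Gnb3, the highest values among their alternatives, whose lowest were 7.15e-06, 2.71e-05 and 0.000185. The Gnb3 call was also lost without WT library 38 (adjusted p = 0.0823) or 39 (adjusted p = 0.0556). All 7 atrial markers and 3 of 4 tested adipose markers rose in the same comparison, and their part in these results was not tested.

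**Figure D3:**
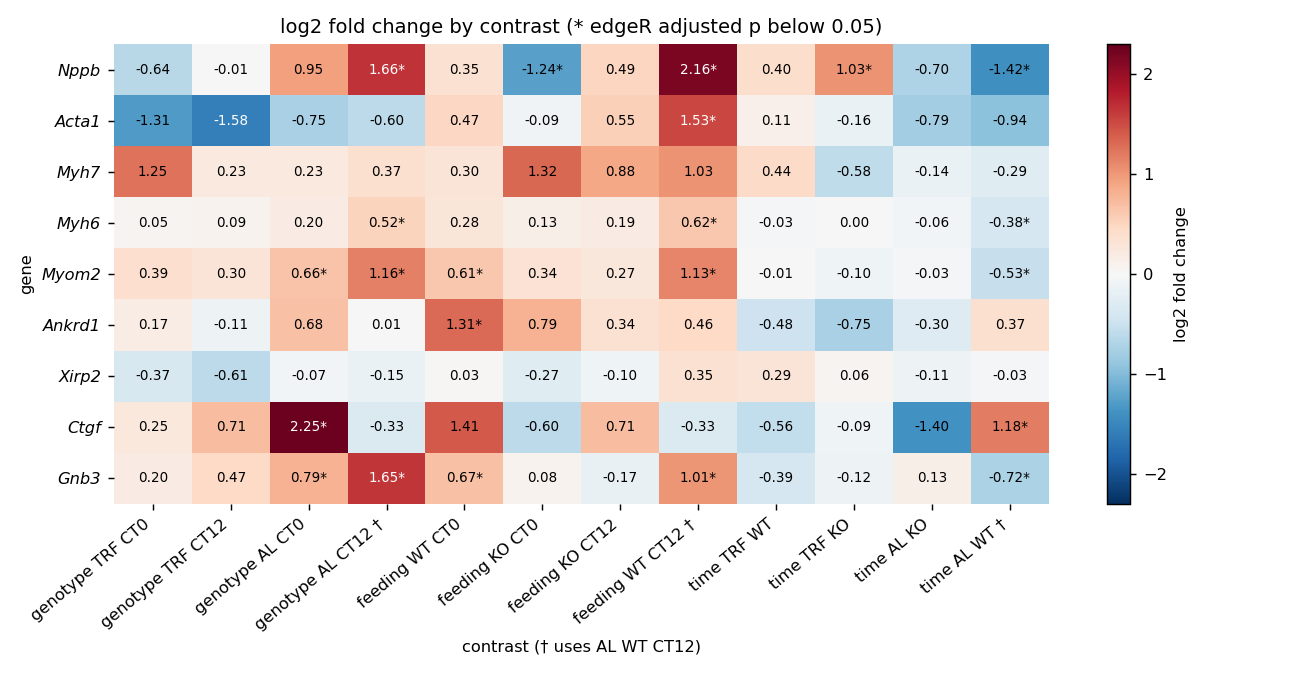
Log2 fold change of each gene in the 12 comparisons between 2 groups, with colour from blue (lower) to red (higher) and the value in each cell. An asterisk marks an edgeR adjusted p below 0.05 and a dagger marks the 3 comparisons that use AL WT CT12. In all 4 genotype comparisons Acta1 is negative (-0.60 to -1.58) and Myom2 is positive (0.30 to 1.16).

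The actin pair was also read as a ratio within each library, which needs no scaling factor. Acta1 made up 3.31 to 6.41% of Acta1 and Actc1 counts in TRF WT CT0, 2.46 to 8.35% in TRF WT CT12, 2.77 to 4.46% in AL WT CT0 and 1.98 to 3.33% in AL WT CT12. In KO it made up 1.28 to 3.39% in TRF CT0, 1.28 to 2.3% in TRF CT12, 2.22 to 2.65% in AL CT0 and 1.47 to 1.5% in AL CT12. The KO mean is below the WT mean in each of the 4 combinations, and in 3 of them the groups do not overlap. The 95% Wilson interval of a single library was at most 0.228 percentage points wide, and it covers counting error only. Averaged over the 4 combinations, the log2 ratio of Acta1 to Actc1 was 1.05 lower in KO, which in a 2-sided exact permutation test within combinations gave p = 4.08e-06 over 490000 divisions (adjusted over 6 such tests, 2.45e-05). Without AL WT CT12 the difference was -1.09 (exact permutation p = 8.16e-05) and without the 3-digit libraries it was -1.01 (exact permutation p = 4.53e-05). Actc1 itself was at 11101 to 13400 CPM in the group means outside AL WT CT12.

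**Figure D4:**
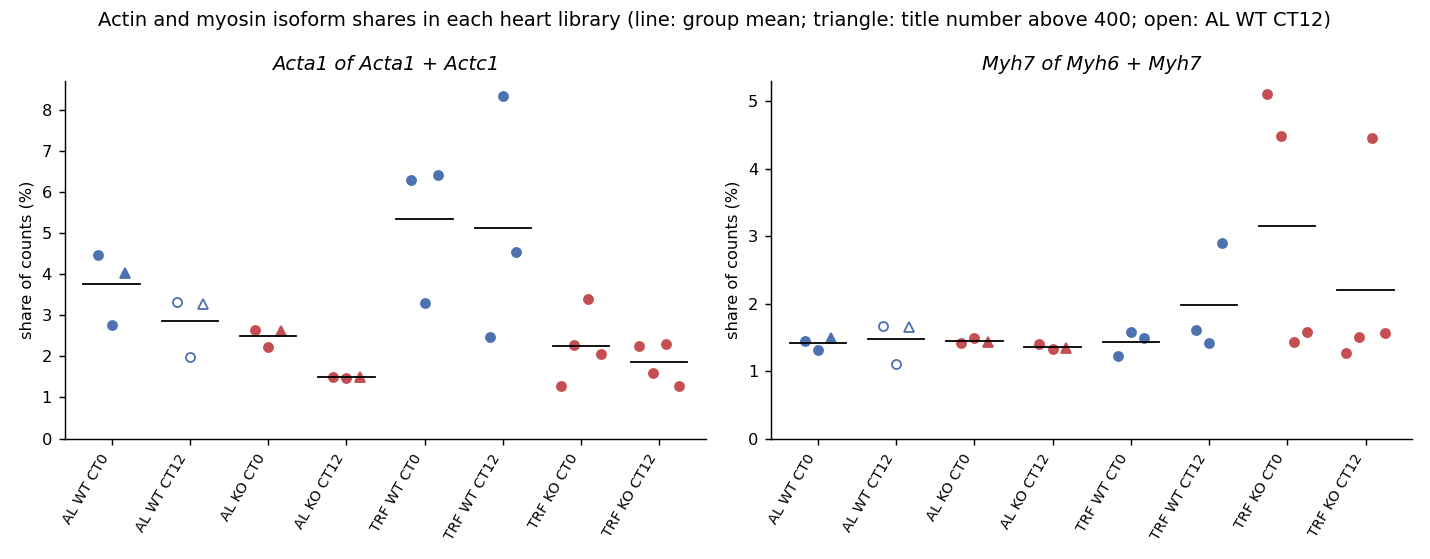
Share of Acta1 in the counts of Acta1 and Actc1 (%), and share of Myh7 in the counts of Myh6 and Myh7 (%), in each of the 26 heart libraries by group. Blue is WT, red is KO, open symbols are AL WT CT12, triangles are the 3-digit AL libraries and lines are group means. The Acta1 share is at most 3.39% in the 14 KO libraries, and the Myh7 share stands at 4.46 to 5.10% in 3 TRF KO libraries.

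The myosin pair gave a different picture, in which a few libraries stood apart. Myh7 made up 5.10% and 4.48% of Myh6 and Myh7 counts in TRF KO CT0 libraries 20 and 21, and 1.57% and 1.43% in libraries 73 and 55 of the same group. In TRF KO CT12 it made up 4.46% in library 30 and 1.27, 1.5 and 1.57% in libraries 28, 29 and 64. TRF WT CT12 library 12 stood at 2.90%, and all other hearts lay between 1.11 and 1.67%. Within both TRF KO groups the remaining libraries thus stayed in the range of the other hearts. Averaged over the 4 combinations, the log2 ratio of Myh7 to Myh6 was 0.45 higher under TRF (2-sided exact permutation p = 0.0497, adjusted 0.106). It was 0.23 higher in KO (exact permutation p = 0.304, adjusted 0.365) and differed by -0.04 at CT12 (exact permutation p = 0.826, adjusted 0.826). Without AL WT CT12 the differences were 0.48 for feeding (exact permutation p = 0.096, adjusted 0.244) and 0.33 for genotype (exact permutation p = 0.257, adjusted 0.386). For time the difference was then -0.06 (exact permutation p = 0.71, adjusted 0.71). None of these passed. In CPM the same libraries held Myh7 at 2411 (library 20), 1980 (library 21) and 1905 (library 30), while the other 5 TRF KO libraries held 615 to 627.

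The 3 libraries with the highest Myh7 also had the 3 highest Myom2 levels, at 3922, 3988 and 3914 CPM, where the next highest heart library was at 3335 CPM. Ankrd1 was also highest in libraries 20 and 21, at 1680 and 1546 CPM, but was at 981 CPM in library 30. Acta1 was not raised in them, at 152, 268 and 268 CPM. Across the 23 hearts outside AL WT CT12, log2 CPM of Myh7 and Myom2 had a Pearson correlation of 0.75, and that of Nppb with each of the other members was between -0.04 and 0.33. These are descriptions over libraries that share groups and near repeats.

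Time-restricted feeding was accompanied by higher Ankrd1, Myom2 and Myh6. Averaged over the 3 combinations of genotype and time without AL WT CT12, a contrast chosen after the values were seen, 3 of 9 genes were called against 8.70% of all heart genes. Clock genes also differed between the feedings at the same CT. Dbp, a clock output gene, was at 87.2 ± 13.0 CPM (SD, n = 3) in TRF WT CT0 and 6.99 ± 1.98 CPM (n = 3) in AL WT CT0, and Arntl was at 3.17 ± 1.92 CPM (n = 4) in TRF KO CT0 and 23.0 ± 3.24 CPM (n = 3) in AL KO CT0. Feeding and clock phase therefore cannot be told apart at a given CT, which also holds for the feeding by time terms. Ankrd1 rose by 0.81 ± 0.17 on the log2 scale (edgeR adjusted p = 0.0054), Myom2 by 0.41 ± 0.07 (adjusted p = 0.000876) and Myh6 by 0.20 ± 0.05 (adjusted p = 0.0182). Myom2 was called under all 36 alternatives. Ankrd1 was not called without the 3-digit libraries (adjusted p = 0.0529) or without these and library 48 (adjusted p = 0.0586, the highest over its alternatives, with 0.000107 the lowest). Myh6 was not called without the 3-digit libraries (adjusted p = 0.098, with 0.000125 the lowest).

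Ankrd1 at CT0 in WT was at 491, 428 and 478 CPM under AL and at 1428, 1048 and 977 CPM under TRF. In KO at CT0 it was at 805, 633 and 796 CPM under AL and at 1680, 1546, 851 and 1089 CPM under TRF. All TRF libraries lie above all AL libraries in both genotypes. The log2 difference was 1.31 ± 0.32 in WT (edgeR adjusted p = 0.0275) and 0.79 ± 0.30 in KO (adjusted p = 0.117), and the 2 were not shown to differ (genotype by feeding at CT0, -0.51 ± 0.42, adjusted p = 0.891). That interaction called 0 of 9 members by edgeR (0.128% of all genes), with 3 at an unadjusted p below 0.05 and 2 by DESeq2. At CT12 in KO the AL libraries, at 596 to 611 CPM, fell within the 408 to 1089 CPM of the TRF libraries.

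In WT at CT0, 3 of 9 genes were called for feeding (2.91% of all genes), Ankrd1, Gnb3 and Myom2, all higher under TRF. Gnb3 was at 18.3, 18.6 and 21.5 CPM under AL and at 25.0, 34.4 and 33.9 CPM under TRF, a log2 difference of 0.67 ± 0.17 (edgeR adjusted p = 0.0256). Myom2 was at 1695 to 1763 CPM under AL and at 2443, 2726 and 2784 CPM under TRF, a log2 difference of 0.61 ± 0.13 (adjusted p = 0.01). Without the 3-digit libraries the adjusted p of Ankrd1, Gnb3 and Myom2 was 0.201, 0.114 and 0.109; over their alternatives it ran from 0.00179 to 0.201, from 0.00222 to 0.118 and from 1.76e-06 to 0.109. The Ankrd1 call was lost on leaving out any 1 of its 6 libraries (0.0517 to 0.126), the Gnb3 call on leaving out any of them except TRF library 1 (0.0568 to 0.118), and the Myom2 call on leaving out the 3-digit one (0.0541). Hepatocyte markers summed to 193 to 247 CPM in the 3 TRF WT CT0 hearts and to 0.292 to 47.9 CPM in AL WT CT0, with 0 of 6 called, and their part in these results was not tested. In KO at CT12, 0 of 9 were called (0.0366% of all genes), with 3 at an unadjusted p below 0.05 and 0 by DESeq2.

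In KO at CT0 feeding went with a lower Nppb, the only member of 9 that was called by edgeR there (7.06% of all genes). It was at 326, 178 and 329 CPM in AL libraries 56, 57 and the 3-digit one and at 161, 106, 113 and 89.5 CPM in TRF libraries 20, 21, 73 and 55. All TRF libraries lie below all AL libraries, and the log2 difference (TRF minus AL) was -1.24 ± 0.23 (edgeR adjusted p = 0.00136). It held without the 3-digit libraries (-1.10, adjusted p = 0.0347) and missed the threshold in a fit of these 2 groups alone (adjusted p = 0.0608, the highest of its alternatives, the lowest being 2.45e-06). All 7 atrial markers and 3 of 4 tested adipose markers were also lower under TRF in this comparison. Within AL KO CT0, library 57 had the highest atrial sum of its group and the lowest Nppb, which is a single library. The part of these markers in the result was not tested.

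Nppb was the one member called for time outside AL WT CT12. Under TRF it was at 161, 106, 113 and 89.5 CPM in KO at CT0 and at 201, 275, 228 and 252 CPM in KO at CT12. All CT12 libraries lie above all CT0 libraries, and the log2 difference (CT12 minus CT0) was 1.03 ± 0.21 (edgeR adjusted p = 0.00923). In TRF KO it was 1 of 9 genes called, against 3.22% of all genes. Without libraries 55 and 64 the difference was 0.89 and missed the threshold (adjusted p = 0.109; range over the alternatives 7.98e-05 to 0.109). In TRF WT Nppb was at 189, 196 and 164 CPM at CT0 and at 155, 237 and 331 CPM at CT12, which overlap (log2 0.40 ± 0.24, adjusted p = 0.423). Averaged over both genotypes within TRF, a contrast chosen after the values were seen, Nppb rose by 0.71 ± 0.16 at CT12 (adjusted p = 0.00568), under all 36 alternatives, as 1 of 9 genes called against 12.1% of all genes.

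In AL KO the order was the other way, with 326, 178 and 329 CPM at CT0 and 141, 209 and 161 CPM at CT12 (log2 -0.70 ± 0.24, edgeR adjusted p = 0.373). The difference between the time effects of TRF and AL in KO was 1.73 ± 0.32 (adjusted p = 0.00742, 1 of 9 genes called against 1.65% of all genes). Without the 3-digit libraries it was 1.55 and missed the threshold (adjusted p = 0.144; range 1.22e-05 to 0.144). For time, edgeR called 0 of 9 genes in AL KO (0.171% of all genes), with 2 at an unadjusted p below 0.05 and 0 by DESeq2. It called 0 of 9 in TRF WT (4.38% of all genes), with 1 at an unadjusted p below 0.05 and 0 by DESeq2. Averaged over AL KO, TRF WT and TRF KO it called 0 of 9 (4.64% of all genes), with 2 at an unadjusted p below 0.05 and 2 by DESeq2 (Ctgf and Ankrd1).

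The comparisons that use AL WT CT12 compare these hearts with libraries that hold brain RNA and less heart muscle RNA. Nppb was at 55.0, 54.7 and 51.7 CPM in AL WT CT12 libraries 47, 48 and the 3-digit one, below the 89.5 CPM of the lowest other heart. Myom2 was at 1272, 1084 and 1251 CPM and Gnb3 at 11.3, 11.5 and 12.6 CPM, also below all other hearts. In the time comparison of AL WT, 5 of 9 genes were called where 40.3% of all genes were, in the genotype comparison of AL CT12 4 of 9 where 38.1% were, and in the feeding comparison of WT CT12 5 of 9 where 40.2% were. These counts are near the share of all genes. The interactions that use AL WT CT12 called 3 of 9 members for genotype by time in AL (28.6% of all genes), 3 for feeding by time in WT (29.9%), 4 for genotype by feeding at CT12 (22.1%) and 1 for the term of all 3 factors (12.5%).

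When libraries were scaled on 1007 heart genes only, Nppb in AL WT CT12 was 73.9 ± 17.5 CPM (SD, n = 3) against 144 ± 16.7 CPM in AL WT CT0. With TMM factors Nppb was called in the genotype comparison of AL CT12 (log2 1.66 ± 0.25, edgeR adjusted p = 1.72e-05). So were Gnb3 (1.65 ± 0.17, adjusted p = 4.21e-08) and Myom2 (1.16 ± 0.13, adjusted p = 1.51e-07). These 3 calls held under all 35 alternatives, heart gene scaling among them. The lowest log2 values over the alternatives were 1.21, 1.21 and 0.72. The genotype difference of Myh6 in AL CT12, 0.52 ± 0.10 with TMM factors (adjusted p = 0.000131), was 0.09 with heart gene scaling. The time difference of Myh6 in AL WT, -0.38 ± 0.10 with TMM factors (adjusted p = 0.00269), turned to 0.04 with heart gene scaling. Both are therefore reported as dependent on the scaling. How much of the other differences comes from the makeup of these 3 libraries was not tested beyond this.

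Of 75 tested genes in 8 other lists of the same biology, the single comparisons outside AL WT CT12 called between 0 and 19. Feeding in KO at CT0 gave 4 higher and 15 lower, where 7.06% of all genes were called, and feeding in WT at CT0 gave 4 higher and 4 lower (2.91%). Genotype in AL CT0 gave 7 higher (1.46%), time in TRF KO 6 higher (3.22%), and time in TRF WT 5 higher and 1 lower (4.38%). Genotype in TRF CT12 gave 1 higher and 2 lower (0.634%), time in AL KO 2 lower (0.171%), feeding in KO at CT12 1 lower (0.0366%) and genotype in TRF CT0 0 (0.293%). The 7 genes higher for genotype in AL CT0 were Corin, Myl4, Myl7, Nppa, Npr3, Tbx20 and Tbx5, and the 1 lower for feeding in KO at CT12 was Myl4. Nppa, Myl4 and Myl7 are on the atrial marker list, whose sum was 1616 to 4189 CPM in AL KO CT0 and 51.0 to 63.8 CPM in AL WT CT0, and the part of atrial RNA in these counts, and in those for feeding in KO at CT0, was not tested.

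Among 15 other fetal and hypertrophy genes, 5 fell and 0 rose for feeding in KO at CT0 (7.06% of all genes called), with a median log2 difference of -0.18 over the 15, where the median over all genes was -0.00075. Rcan1, a calcineurin inhibitor that is induced by calcineurin signalling, was at 167 ± 16.9 CPM (SD, n = 3) under AL and 87.2 ± 5.29 CPM (n = 4) under TRF, a log2 difference of -0.94 ± 0.10 (edgeR adjusted p = 3.62e-06). Myl4 and Myl7, the atrial light chains, fell too, with log2 differences of -9.03 and -10.14, and both are on the atrial marker list. Rcan1 also rose at CT12 under TRF, by 0.70 in KO (adjusted p = 0.000242) and 0.49 in WT (adjusted p = 0.0109), and fell by 0.52 in AL KO (adjusted p = 0.0433).

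Of 12 tested strain-sensing genes of the Z-disc and intercalated disc, 4 rose and 1 fell for feeding in KO at CT0 (7.06% of all genes called). In WT at CT0, 3 rose and 1 fell (2.91%). Tcap, which caps titin at the Z-disc, was at 808 ± 66.5 CPM (n = 3) under AL and 2802 ± 241 CPM (n = 4) under TRF in KO, a log2 difference of 1.79 ± 0.34 (edgeR adjusted p = 0.00198). Hspb7, a small heat shock protein of heart muscle, rose by 0.38 ± 0.09 in the same comparison (adjusted p = 0.00847), and missed the threshold without the 3-digit libraries (adjusted p = 0.0513; lowest over its alternatives 7.42e-05). Ankrd23, of the same family as Ankrd1, went the opposite way to Ankrd1, from 5.72 ± 0.90 to 1.73 ± 0.25 CPM in WT (n = 3 each), a log2 difference of -1.72 ± 0.32 (adjusted p = 0.00343).

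Of 12 cardiac transcription factors, 3 fell and 0 rose for feeding in KO at CT0 (7.06% of all genes called). Srf, which binds CArG boxes, was at 236 ± 12.3 CPM under AL (n = 3) and 154 ± 7.91 CPM under TRF (n = 4), a log2 difference of -0.62 ± 0.12 (edgeR adjusted p = 0.00164), and Tbx20 fell by 0.48 ± 0.11 (adjusted p = 0.00536). Srf also rose at CT12 under TRF, by 0.63 ± 0.13 in WT (adjusted p = 0.00587) and 0.64 ± 0.11 in KO (adjusted p = 0.00199). The part of clock phase in its feeding difference was not tested. Tead1, which binds MCAT elements, rose at CT12 in TRF WT from 140 ± 15.3 to 199 ± 7.33 CPM (n = 3 each), a log2 difference of 0.51 ± 0.09 (adjusted p = 0.00155). Of 10 YAP and TEAD targets, 2 fell and 0 rose for feeding in KO at CT0 (7.06% of all genes called). Thbs1, a matrix protein, fell by 1.77 ± 0.25 (adjusted p = 7.43e-05), Amotl1 rose by 0.26 ± 0.06 at CT12 in TRF KO (adjusted p = 0.00897), and Tgfb2, a growth factor, rose by 0.74 ± 0.16 for feeding in WT at CT0 (adjusted p = 0.0129). Thbs1 also rose by 0.93 ± 0.27 at CT12 in TRF WT (adjusted p = 0.0472). Tgfb2 was called under 30 of 36 alternatives (adjusted p from 0.00153 to 0.176), and not without the 3-digit libraries or without library 1 or 38 alone or the 3-digit AL WT CT0 library alone (0.102, 0.0872 and 0.104), the highest value being that without all 3-digit libraries.

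Of 7 natriuretic peptide processing and receptor genes, 1 fell for feeding in KO at CT0 (7.06% of all genes called). For genotype in AL CT0, 2 rose (1.46%). Npr3, the clearance receptor, was at 40.7 ± 10.7 CPM under AL (n = 3) and 16.0 ± 2.54 CPM under TRF (n = 4), a log2 difference of -1.35 ± 0.22 (edgeR adjusted p = 0.000442), in the comparison in which Nppb and the atrial markers were also lower. Corin, the protease that activates natriuretic peptides, rose by 0.56 ± 0.14 in KO for genotype in AL CT0 (adjusted p = 0.0395), the comparison in which all 7 atrial markers rose. It was called under 25 of 36 alternatives (adjusted p from 0.000276 to 0.28), and on leaving out any 1 of the 6 compared libraries the call was lost (0.0601 to 0.262), as it was without the 3-digit libraries (0.28), without TRF KO CT0 library 73 (0.0516) and without the 3-digit AL KO CT12 library (0.0521). Of 7 thyroid hormone receptor and responsive genes, Thra and Dio2 fell for feeding in KO at CT0 (7.06% of all genes called). Thra fell by 0.44 ± 0.08 (adjusted p = 0.00143) and Dio2 by 1.57 ± 0.41 (adjusted p = 0.0183). For genotype in TRF CT12 (0.634%) the receptors went opposite ways in KO. There Thrb fell by 0.44 ± 0.09 (adjusted p = 0.0317) and Thra rose by 0.36 ± 0.08 (adjusted p = 0.0418). Thra also rose by 0.39 ± 0.08 at CT12 in TRF KO (adjusted p = 0.00541). Dio2 was at a low level, 1.02 ± 0.39 CPM (SD, n = 3) under AL and 0.339 ± 0.083 CPM (n = 4) under TRF. It was called under 32 of 36 alternatives (adjusted p from 0.00537 to 0.127). It was not called without library 55, 56 or 57 (0.0568, 0.068 and 0.127). Thrb was called under 27 of 36 (adjusted p from 0.00232 to 0.145), and not without WT library 10, 11 or 12 (0.117, 0.058 and 0.118) or KO library 29 or 30 (0.0515 and 0.0965), nor without the 3-digit libraries (0.092). Thyroid hormone receptors regulate the myosin pair.

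No single comparison outside AL WT CT12 called any of the 8 tested M-band genes, the group to which Myom2 belongs, by edgeR. The smallest adjusted p were 0.0608 for Myom3 (-0.73 ± 0.22, time in TRF WT), 0.105 for Ttn (-0.40 ± 0.12, genotype in TRF CT12) and 0.124 for Trim63 (-0.38 ± 0.14, time in TRF WT), and DESeq2 called the first 2. Of the 4 other G protein β subunits, Gnb5 fell by 0.28 ± 0.06 for feeding in KO at CT0 (edgeR adjusted p = 0.00776). It was called under 32 of 36 alternatives (adjusted p from 0.00385 to 0.111), and not without the 3-digit libraries (0.0829) or library 56 (0.0565). Gnb5 also rose by 0.28 ± 0.06 at CT12 in TRF KO (adjusted p = 0.0107). Without the 3-digit libraries, Rcan1, Tcap, Ankrd23, Srf, Tbx20, Thbs1, Npr3, Thra and Dio2 stayed below the threshold for the comparisons named first for each (highest adjusted p 0.0419, for Tbx20).

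The genes most like each member across the 23 hearts outside AL WT CT12, by Pearson correlation of log2 CPM, were Ckap4 (0.82) for Nppb, Osbpl9 (0.82) for Acta1, Polr1e (0.85) for Myh7, Prpf8 (0.89) for Myh6, Hist1h1c (0.89) for Ankrd1, Hspa4 (0.91) for Xirp2, Synpo2l (0.82) for Ctgf, Tmbim1 (0.92) for Myom2 and Frem2 (0.79) for Gnb3. The next were Spsb4 and Tnfrsf12a for Nppb, Hsph1 and Sstr3 for Acta1, Atp6v1g1 and Nuak2 for Myh7, Ddb1 and Tox4 for Myh6, Osbp and Cep164 for Ankrd1, Trip12 and AI597479 for Xirp2, Sbsn and Shd for Ctgf, Etv5 and Dazap2 for Myom2, and Acy3 and Ntn1 for Gnb3. No test was made on these.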

How the data were processed

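RNA was measured in 76 libraries of heart, liver and SCN, of which the 26 heart libraries were compared. Per the labels, RNA was extracted with TRIzol and libraries were made with the NEBNext Ultra II kit. Per the submitters' processing notes, FastQC 0.11.8, STAR and mm10 (GRCm38) were used, and the counting program, strand setting and annotation release are not given in the sources used here. The authors deposited raw read counts per gene, whole numbers without normalisation. Exon lengths and coordinates came from GENCODE, in which 99.8% of the identifiers matched.

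The 9 genes, the other lists and the tests were chosen with earlier results of these data known. Counts were filtered by filterByExpr, scaled by TMM and fitted with edgeR 4.0.16 (group-means model, robust quasi-likelihood, limma 3.58.1, R 4.3.3), with Benjamini-Hochberg adjustment over 16397 genes. The contrasts were 12 between 2 groups, 7 interactions, and averaged ones added after the data were seen. The actin and myosin ratios were tested by exact permutation within combinations (scipy 1.17.1, Python 3.11.15). The fits were tested on simulated data. Named genes of other lists are the 3 with the smallest adjusted p outside AL WT CT12, and further values of the same genes. Other genes whose levels are most like a member's are the 3 with the highest correlation, leaving out predicted, mitochondrial, haemoglobin and immunoglobulin genes.

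Alternatives were RLE factors, no filter, DESeq2 1.42.0, the compared groups alone, a term for the 3-digit AL libraries, scaling on heart genes, and fits without each library, the 3-digit AL libraries, AL WT CT12, or TRF KO libraries 55 and 64, whose numbers lie among those of AL KO. A fit without the 3-digit libraries and library 48 was added after the data were seen. Total counts limit precision, and intervals cover counting error only.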

Additional observations from a re-analysis of the deposited data

Results flagged for a closer look

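In TRF KO CT12 the Myh7 level of library 30, 1905 CPM, lay far above the 615 to 626 CPM of the other 3 libraries, and so did its Myh7 share of Myh6 and Myh7 counts, 4.46% against 1.27 to 1.57%. Of 22 groups of values that could be examined for a library apart, these 2 stood out, and chance alone gives about 1 in 20. The share is computed from the same Myh7 counts, so both concern the same library and gene. The groups of values are not independent, so the count cannot be set against that rate.

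The effect of a factor on a member differed between groups, by edgeR's test of the interaction, in 12 cases, of which only 1 does not use AL WT CT12. That one is Nppb, whose time effect in KO was 1.73 higher (log2) under TRF than under AL. In the WT, with AL WT CT12, the same difference was 1.82, and the genotype effect on Nppb at CT12 differed between TRF and AL by -1.68.

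For Ctgf the time effect under AL was lower in KO than in WT by a log2 of -2.58, the time effect in WT was lower under TRF than under AL by -1.74, and the term of all 3 factors was 3.05. For Myom2 these were 0.50 for genotype by time under AL, 0.52 for feeding by time in WT and -0.86 for genotype by feeding at CT12. For Gnb3 the genotype by time term under AL was 0.86 and genotype by feeding at CT12 was -1.18. For Myh6 genotype by feeding at CT12 was -0.43. In these interactions 12.5 to 29.9% of all heart genes were called, and the part of the brain RNA in AL WT CT12 was not tested. The genotype by time term under TRF, without AL WT CT12, called 0 genes of 16397 by edgeR, with 0 of the 9 members at an unadjusted p below 0.05 and 0 by DESeq2.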

How the results depend on the processing

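No paired analysis was possible because the heart groups compared share no title number. Counts are numbers of member calls summed over the contrasts of a kind. Without the 3-digit AL libraries the calls went from 7 to 4 for genotype, from 12 to 6 for interactions and from 27 to 16 for averaged effects, and without these and library 48 from 6 to 1 for time and from 12 to 5 for interactions. Without AL WT CT12 the genotype comparisons that do not use it went from 3 to 6. Leaving out single libraries gave 5 to 7 calls for time, 6 to 10 for genotype, 6 to 11 for feeding, 9 to 14 for interactions and 23 to 29 for averaged effects. The actin ratio stayed between -1.17 and -0.93 for genotype, between 0.20 and 0.44 for feeding and between -0.51 and -0.28 for time; the last, not called in the full set, passed only without TRF WT CT12 library 11 (-0.51, exact permutation, adjusted p = 0.031). The myosin ratio stayed between -0.14 and 0.04 for time, 0.12 and 0.31 for genotype and 0.35 and 0.53 for feeding. Under heart gene scaling 1 called member value changed sign, Myh6 for time in AL WT, from -0.38 to 0.044; 22 values that were called under neither scaling also changed sign. The cause was not tested. RLE factors changed no call. With 3 libraries a group, an effect that is not called is not shown to be absent.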
